A study of Rattus norvegicus with 6 samples.

Results

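Fibronectin and the integrin subunits that recognize its arginine-glycine-aspartate (RGD) sequence were followed in vascular smooth muscle (VSM) cells grown from the SFA, the soleus feed artery, which brings blood to the soleus muscle of the hind limb. The 9 genes were taken by symbol: the α subunit genes Itga5, Itga8 and Itgav, the β subunit genes Itgb1, Itgb3, Itgb5, Itgb6 and Itgb8, and the ligand gene Fn1. Of these, 8 had a row among the 14475 genes of the count table, while Itgb6 had none and was not analysed here. The cultures came from male Fischer 344 rats aged 4 months (young, 3 libraries) or 24 months (old, 3 libraries), with 3 rats in each group by the study's methods and no genetic change or treatment in either group. The labels do not name the rat behind a library, so the p-values measure the spread between these libraries. All cells were grown outside the artery in medium with serum, and the number of passages is not given in the sources used here.

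Integrins are dimers of an α and a β subunit that cross the cell membrane, hold matrix proteins outside the cell and link through talin, kindlin and other adaptors to actin inside it. The β1 subunit pairs with α5, α8, αv and with the collagen and laminin binding α subunits, whereas β3, β5, β6 and β8 pair with αv. The α5β1 dimer is the main fibronectin receptor and assembles fibronectin into fibrils, α8β1 is a receptor of smooth muscle and other mesenchymal cells, and αvβ6 and αvβ8 also bind the RGD sequence of latent TGF-β. In resistance arteries α5β1 and αvβ3 take part in the myogenic response to pressure. The study imaged its VSM cells on fibronectin, but the surface on which the sequenced cultures grew is not stated.

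Counts on genes summed to between 44235674 and 59700887 per library. Each sum was larger than the number of reads per sample that the study gives. Values are given as CPM, counts scaled to a common library total after the TMM correction for library composition, and are not divided by transcript length, so levels are compared between libraries and not between genes. Low counts (1 to 19) were even numbers in 68.7% to 71.1% of cases, a pattern that arises when the mates of a pair are counted singly, so counting error may be larger than the counts imply. All 9 smooth muscle markers on a fixed list were in the table, with a summed level of 11211 to 21000 CPM (lowest and highest library) in young and 3450 to 5565 CPM in old. The endothelial markers Cdh5, Tie1, Emcn and Nos3, the macrophage markers Ptprc, Adgre1 and Lyz2 and the epithelial markers Epcam, Krt18, Krt5 and Cdh1 had no row. The other 5 endothelial and 3 macrophage markers and the epithelial Krt8 had rows. They summed to at most 20.0, 16.8 and 3.58 CPM in a library. On the first principal component of log2 CPM, old replicate 1 at 12.5 lay between the young libraries (-54.0 to -22.3) and the other old libraries (47.5 and 48.4). In RNA pooled from a culture, fewer cells of a type and less RNA per cell cannot be told apart.

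By their fitted estimates, 5 of the 7 RGD-binding integrin genes had lower and 2 had higher levels in old than in young VSM cells. Itga8 was 3.45-fold lower and Itgb1 1.80-fold lower, Itga5, Itgav and Itgb3 had smaller negative differences, Itgb5 and Itgb8 were 1.30-fold and 1.47-fold higher, and Fn1 was 1.13-fold higher. Differences were tested over all genes with edgeR's quasi-likelihood test, and a gene was called at an adjusted p under 0.05 with a log2 fold change (log2FC, old against young) of 1 or more in size. By this rule 0 of the 8 genes were called, beside 0.615% of all genes. Without adjustment, 3 of the 8 had a p under 0.05 in this test (Itga8, Itgb1 and Itga5, each lower in old), beside 23.2% of all genes. The DESeq2 Wald test called 1 of the 8, Itga8, beside 5.56% of all genes. From limma-voom, 0 of the 8 and 0 of all genes were called. In that test 2 of the 8 had an unadjusted p under 0.05, beside 3347 of all 14475 genes. The median log2FC was -0.34 over the 8 genes and 0.02 over all genes. It was -0.21 over the 8 genes without young replicate 3 and -0.19 without old replicate 2.

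The old and young libraries did not overlap for 4 of the 8 genes, beside 29.2% of all genes. Old was lower for Itga8, Itgb1 and Itgav (3 of 8, beside 14.7% of all genes) and higher for Fn1 (1 of 8, beside 14.5%). With 3 libraries against 3, an exact permutation test cannot give a two-sided p below 0.1, and it gave p = 0.1 for each of these 4 genes.

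**Figure D1:**
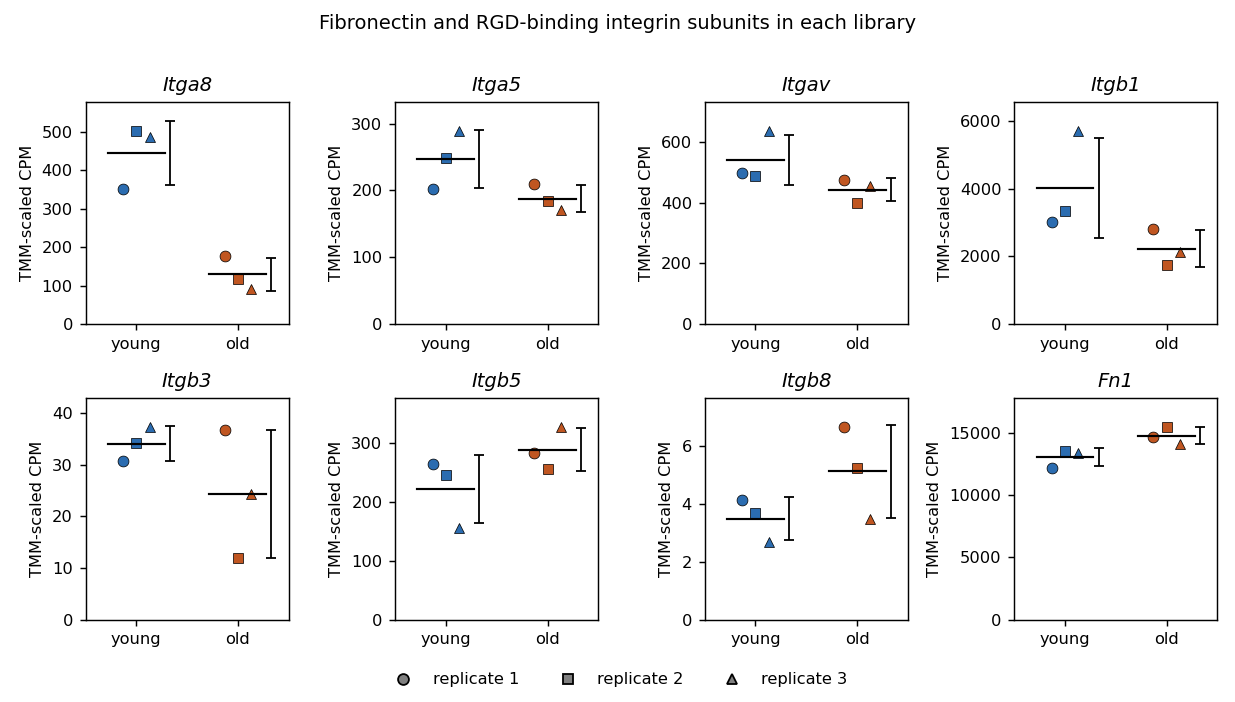
TMM-scaled CPM of each gene (vertical axes from 0, a scale of its own in each panel) in the 3 young (blue) and 3 old (orange) libraries, with marker shapes for the replicate numbers, horizontal lines for the group means and bars for ± 1 SD beside each group. In the Itga8 panel the lowest young library is at 350.03 CPM and the highest old library at 177 CPM, and the Itgb3 panel has an old library at 36.7 CPM within the young range.

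Promoter windows are shown for the subunits whose old libraries all lay below the young ones, Itga8, Itgb1 and Itgav. The sequences run from 250 bases before to 50 bases after the RefSeq start of the gene on assembly GRCr8, which is not the assembly the reads were mapped to, and they are written 5′ to 3′ on the gene's own strand. Capitals mark matches on either strand to the CArG box (the serum response factor motif of contractile genes), GGGCGG (Sp1 type), CATTCC (TEAD type), TGANTCA (AP-1 type) or TATAAA, and no matches overlapped.
Itga8, chr17:80410584-80410883, minus strand: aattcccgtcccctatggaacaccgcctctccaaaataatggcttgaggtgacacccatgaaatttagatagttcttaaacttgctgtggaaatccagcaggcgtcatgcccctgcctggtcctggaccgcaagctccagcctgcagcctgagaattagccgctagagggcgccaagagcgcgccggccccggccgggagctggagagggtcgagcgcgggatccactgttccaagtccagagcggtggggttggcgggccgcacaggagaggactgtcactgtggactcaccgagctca
Itgb1, chr19:73602027-73602326, plus strand: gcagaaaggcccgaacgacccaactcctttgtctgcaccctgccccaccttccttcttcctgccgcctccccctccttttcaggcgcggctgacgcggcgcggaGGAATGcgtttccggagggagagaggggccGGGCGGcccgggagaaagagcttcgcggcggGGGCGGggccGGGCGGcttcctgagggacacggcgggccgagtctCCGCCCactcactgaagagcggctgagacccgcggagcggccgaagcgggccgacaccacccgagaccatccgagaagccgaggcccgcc
Itgav, chr3:89245132-89245431, plus strand: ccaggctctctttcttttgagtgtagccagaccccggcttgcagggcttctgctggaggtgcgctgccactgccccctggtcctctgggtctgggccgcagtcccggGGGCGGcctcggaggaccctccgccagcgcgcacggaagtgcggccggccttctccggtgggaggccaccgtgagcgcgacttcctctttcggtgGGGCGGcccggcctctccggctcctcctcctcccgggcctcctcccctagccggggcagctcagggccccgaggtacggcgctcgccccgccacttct
The Itga8 window held none of the 5 motifs, the Itgb1 window held 4 matches to GGGCGG and 1 to CATTCC, and the Itgav window held 2 matches to GGGCGG. Of 33469 promoter windows of this length in the RefSeq table, 33.1% held GGGCGG, 14.2% CATTCC, 14.2% TATAAA, 7.33% TGANTCA and 1.64% a CArG box. The windows of Itga8, Itgb1 and Itgav were 60.3%, 71.7% and 72.7% G or C, where the median window was 51.7%. Windows were found for 7 of the 9 listed genes. Among the other 4, Itga5 held 2 matches to GGGCGG, Itgb8 held 1 to GGGCGG and 1 to CATTCC, Itgb5 held no match, and Itgb6, which had no row in the count table, held the only CArG box.

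Among the α subunits, Itga8 had the largest difference. Itga8 (ENSRNOG00000016538) had 350.03, 501 and 485 CPM in young replicates 1, 2 and 3 and 177, 118 and 92.6 CPM in old replicates 1, 2 and 3. Every old library lay below every young library, and the highest old library was replicate 1. The means were 445 ± 83.0 CPM in young against 129 ± 43.3 CPM in old (SD, n = 3 each). The log2FC was -1.78 (standard error 0.27, 95% interval -2.44 to -1.13, edgeR adjusted p = 0.0516). Of all genes, 1.86% had a lower log2FC. The adjusted p was 9.13e-08 from DESeq2 and 0.0567 from limma-voom, so that the call for Itga8 depended on the test. Without old replicate 1, edgeR gave a log2FC of -2.08 and an adjusted p of 0.0257, while 5.36% of all genes were called. With any other library left out, the edgeR log2FC of Itga8 was between -1.93 and -1.59 and the adjusted p between 0.0797 and 0.213.

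Itgav (ENSRNOG00000004912), the α subunit shared by the vitronectin-type receptors, had 499, 488 and 636 CPM in young VSM cells against 473, 399.7 and 454 CPM in old cells. The groups were separate by a narrow margin, with young replicate 3 above the rest. Its means were 541 ± 82.5 CPM in young against 442 ± 38.2 CPM in old (SD, n = 3 each), a log2FC of -0.29 (95% interval -0.64 to 0.06, edgeR adjusted p = 0.277). Without young replicate 3 it was -0.16. Itga5 (ENSRNOG00000057451), the α subunit of the main fibronectin receptor, had 202, 248 and 289 CPM in young VSM cells against 209, 184 and 170.2 CPM in old cells. Here the groups overlapped, since old replicate 1 was above young replicate 1. The log2FC of Itga5 was -0.39 (95% interval -0.76 to -0.02, edgeR adjusted p = 0.201). The intervals of Itga5 and Itgav did not reach a 2-fold decrease, and that of Itga8 lay wholly beyond it.

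Within each library the ratio between α subunit genes does not depend on library scaling. The log2 ratio of Itga8 to Itga5 was 0.79, 1.01 and 0.75 in the young and -0.24, -0.64 and -0.88 in the old libraries. It was thus positive in the 3 young and negative in the 3 old libraries, and the group means differed by -1.44, against SDs of 0.14 in young and 0.32 in old (n = 3 each). The log2 ratio of Itga8 to Itgav was -0.51, 0.04 and -0.39 in the young and -1.42, -1.76 and -2.29 in the old libraries, also without overlap. By contrast, the log2 ratio of Itga5 to Itgav had a mean of -1.14 ± 0.16 in young against -1.24 ± 0.16 in old (SD, n = 3 each), a difference smaller than either SD. These ratios were chosen with earlier results of these data known and were not tested. Since the 2 transcripts of a ratio differ in length, a ratio above or below 0 on this scale does not say which mRNA was more abundant.

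**Figure D2:**
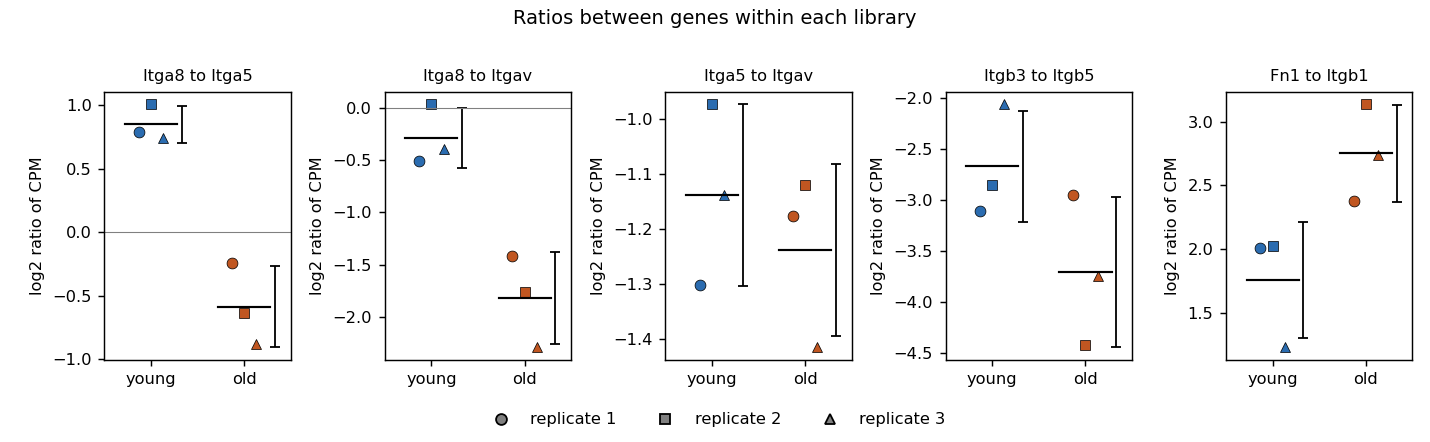
Log2 ratio of CPM between named genes in each library (vertical axes, with separate ranges that do not start at 0), by age group, with marker shapes for replicate numbers, lines for group means and bars for ± 1 SD. The 3 young and 3 old libraries are apart for Itga8 to Itga5, Itga8 to Itgav and Fn1 to Itgb1, and they overlap for Itga5 to Itgav and Itgb3 to Itgb5.

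Among the β subunits, Itgb1 (ENSRNOG00000010966) had 3028, 3334 and 5700.5 CPM in young VSM cells against 2816, 1759 and 2121 CPM in old cells. Itgb1 encodes β1, the partner of all the α subunits here and of most others. The old libraries were below the young, but young replicate 3 was far above the other young libraries. The means were 4021 ± 1463 CPM in young against 2232 ± 537 CPM in old (SD, n = 3 each). The log2FC was -0.85 (standard error 0.34, 95% interval -1.67 to -0.03, edgeR adjusted p = 0.206). DESeq2 gave an adjusted p of 0.0502. Without young replicate 3 the log2FC was -0.51 (edgeR adjusted p = 0.413), and without old replicate 1 it was -1.05 (edgeR adjusted p = 0.119, and 0.00914 from DESeq2). DESeq2 also called Itgb1 without young replicate 1, at -1.03 (adjusted p = 0.0364). Of all genes, DESeq2 called 9.51% without old replicate 1 and 5.09% without young replicate 1.

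Itgb3 (ENSRNOG00000048449), whose product pairs with αv in the receptor for vitronectin and fibronectin, had 30.6, 34.1 and 37.3 CPM in young VSM cells against 36.7, 11.9 and 24.3 CPM in old cells. The young libraries were close together and the old libraries were spread, with coefficients of variation of 9.88% in young and 51.0% in old. Old replicate 1 lay within the young range and the other old libraries lay below it. The log2FC was -0.48 (95% interval -1.38 to 0.41, edgeR adjusted p = 0.453). It was -0.91 without old replicate 1 (edgeR adjusted p = 0.123) and -0.16 without old replicate 2 (adjusted p = 0.721), so that single old libraries set its size.

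Itgb5 and Itgb8 were the subunits with higher means in old. Itgb5 (ENSRNOG00000001795), which forms the vitronectin receptor αvβ5, had 263, 245 and 155 CPM in young VSM cells against 283, 255 and 327 CPM in old cells. Young replicate 3 had the lowest value and young replicate 1 was above old replicate 2. The log2FC of Itgb5 was 0.38 (95% interval -0.13 to 0.89, edgeR adjusted p = 0.322), and without young replicate 3 it was 0.18. Itgb8 (ENSRNOG00000006569), whose product binds latent TGF-β as αvβ8, had few reads, with 186, 221 and 131 counts in young VSM cells against 331, 272 and 186 in old cells. Its levels were 3.49 ± 0.745 CPM in young against 5.12 ± 1.59 CPM in old (SD, n = 3 each), and old replicate 3 lay within the young range. The log2FC of Itgb8 was 0.55 (95% interval -0.16 to 1.26, edgeR adjusted p = 0.30). The log2 ratio of Itgb3 to Itgb5 had means of -2.67 ± 0.55 in young against -3.71 ± 0.74 in old (SD, n = 3 each), and the groups overlapped.

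Fn1, the ligand gene, had the smallest fold difference of the 8. The gene (ENSRNOG00000014288) had 12203, 13545 and 13363 CPM in young VSM cells against 14649.5, 15496.5 and 14137 CPM in old cells, between 1.25% and 1.60% of all counts of a library. Each old library was above each young library, with means of 13037 ± 728 CPM in young against 14761 ± 687 CPM in old (SD, n = 3 each). The log2FC was 0.18 (95% interval -0.89 to 1.25, edgeR adjusted p = 0.827). This interval is wider than the libraries themselves spread: the SD of log2 CPM was 0.08 in young and 0.07 in old, and the standard error was 0.45 from edgeR, 0.10 from DESeq2 and 0.15 from limma-voom. The adjusted p of Fn1 was 0.247 from DESeq2 and 0.496 from limma-voom. Relative to Itgb1, Fn1 was higher in old, with log2 ratios of 2.01, 2.02 and 1.23 in the young and 2.38, 3.14 and 2.74 in the old libraries. These groups were separate, and the lowest ratio belonged to young replicate 3, the library with the highest Itgb1.

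**Figure D3:**
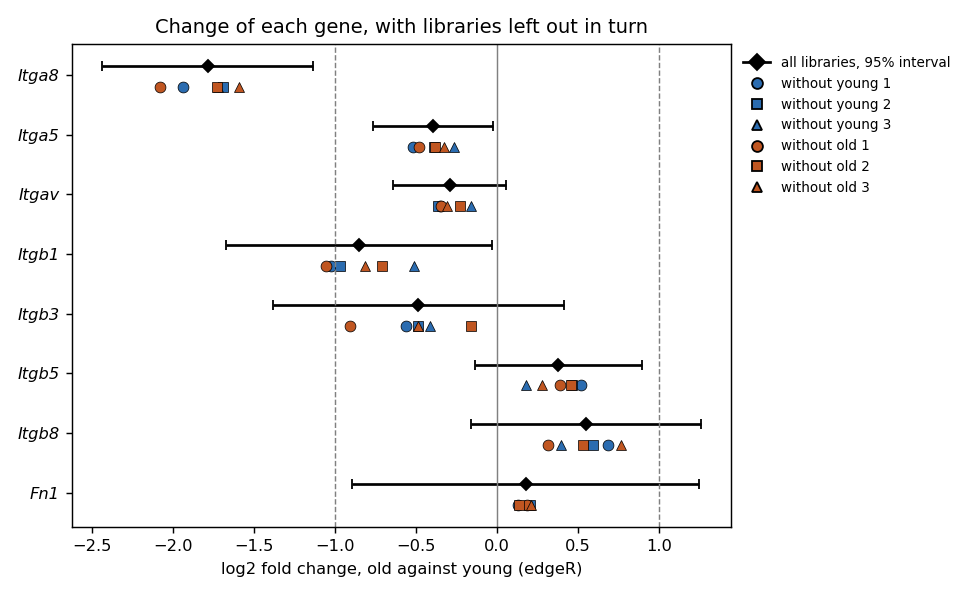
Log2 fold change of each gene in old against young VSM cells from edgeR (horizontal axis, dashed lines at -1 and 1), with black diamonds and 95% intervals for all 6 libraries and coloured symbols for fits with 1 library left out. All symbols of a gene lie on the same side of 0, and only the Itga8 interval (-2.44 to -1.13) lies wholly below -1.

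The order by log2FC was Itga8, Itgb1, Itgb3, Itga5, Itgav, Fn1, Itgb5 and Itgb8. The interval of Itga8 (-2.44 to -1.13) overlapped those of Itgb1 and Itgb3 and did not reach those of Itga5, Itgav, Fn1, Itgb5 or Itgb8. From Itgb1 to Fn1 each interval overlapped the next, and so did those of Fn1, Itgb5 and Itgb8. Differences between genes were not tested. Without old replicate 1, the library nearest to the young group, the log2FC was -0.48 for Itga5, -0.34 for Itgav, 0.18 for Fn1, 0.39 for Itgb5 and 0.32 for Itgb8.

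The partners of these receptors were then counted over 6 lists, in which 67 of 78 genes had a row. Of the 17 genes in the table that activate integrins or link the β tail to actin, 17 had a negative log2FC, with a median of -0.65, and old and young libraries were separate for 12, all lower in old (beside 14.7% of all genes). edgeR called 1 of the 17 (beside 0.615%), with 12 at an unadjusted p under 0.05 (beside 23.2%). From limma-voom 0 were called (beside 0 of all genes) and from DESeq2 5 (beside 5.56%). The same shares of all genes, and 29.2% for separation in either direction, stand behind the counts of the other lists. The gene called by edgeR was Lims2 (PINCH2, a partner of integrin-linked kinase), which fell from 45.9, 62.0 and 72.7 CPM in young VSM cells to 26.4, 24.8 and 25.0 CPM in old cells, a log2FC of -1.25 (standard error 0.17, edgeR adjusted p = 0.0466). Vcl, which encodes vinculin, had a log2FC of -1.48 (edgeR adjusted p = 0.114), and Actn1, which encodes the actin crosslinker α-actinin-1, one of -1.45 (adjusted p = 0.0610). DESeq2 called these 3 genes together with Zyx and Actn4, which are named here after their values were seen.

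Other RGD ligands differed from Fn1 and from each other. Of 12 ligand genes in the table, 8 had a negative and 4 a positive log2FC, with a median of -0.13, and the groups were separate for 4. edgeR called 0 of the 12, with 4 at an unadjusted p under 0.05, limma-voom called 0, and DESeq2 called 3. Tnc, which encodes the matrix protein tenascin-C, had 9580, 8824 and 7720 CPM in young VSM cells against 2801, 1521 and 1222 CPM in old cells. Its log2FC was -2.24 (standard error 0.41, edgeR adjusted p = 0.0620 and 1.74e-09 from DESeq2). Tgfbi, whose product is a TGF-β induced matrix protein, had 47.7, 12.4 and 7.92 CPM in young VSM cells against 378, 137 and 107 CPM in old cells. That made a log2FC of 3.20 (standard error 0.84, edgeR adjusted p = 0.111 and 0.00812 from DESeq2). The other ligand called by DESeq2, Mfge8, is named after its values were seen and averaged 0.928 CPM in young and 0.451 CPM in old.

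Among the 6 genes of latent TGF-β and its holders, 5 had a negative log2FC and the groups were separate for 2, with 0 called by edgeR (3 at an unadjusted p under 0.05), 0 by limma-voom and 2 by DESeq2. Tgfb3, whose latent form carries an RGD sequence, had 1215, 2283 and 3172 CPM in young VSM cells against 446, 183 and 659.5 CPM in old cells, a log2FC of -2.37 (edgeR adjusted p = 0.0944 and 0.000105 from DESeq2). Tgfb2 had a log2FC of -2.47 (edgeR adjusted p = 0.0888 and 6.18e-05 from DESeq2). Of the 8 fibronectin fibril partners, 5 had a negative and 3 a positive log2FC, with a median of -0.39 and separate groups for 4, and with 0 called by edgeR (4 at an unadjusted p under 0.05), 0 by limma-voom and 1 by DESeq2. This was Tgm2, the transglutaminase that crosslinks matrix and binds fibronectin, with a log2FC of -1.83 (edgeR adjusted p = 0.0944 and 0.000664 from DESeq2).

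The 10 inactivators and trafficking genes had a median log2FC of 0.07, with 4 negative and 6 positive. edgeR called 0 of them (2 at an unadjusted p under 0.05), limma-voom 0, and DESeq2 1, Kank1, which links talin to the cell cortex (log2FC -1.65, edgeR adjusted p = 0.0768 and 0.000198 from DESeq2). Of the 14 other integrin subunits in the table, 9 had a negative log2FC, with a median of -0.22, and the groups were separate for 7. edgeR called 1 of the 14, Itga7, a laminin receptor subunit of muscle, at -2.37 (standard error 0.22, edgeR adjusted p = 0.0466). Of the subunits that pair with β1, Itga1 and Itga4 had log2FCs of -1.55 and -5.44 (adjusted p = 0.0866 and 0.113 from edgeR). Itga4 had 0.886, 4.99 and 30.3 CPM in the young libraries, so that its young mean rested on replicate 3. The old libraries held only 6, 22 and 15 counts of Itga4. DESeq2 called 5 of the 14, namely Itga7, Itga1, Itga4, Itga3 and Itgb7, of which the last 2 are named after their values were seen. Itgb7, which encodes a leukocyte integrin subunit, was higher in old at a log2FC of 2.53 (edgeR adjusted p = 0.0944), and the other 4 were lower. Itgb7 had few reads, with 28, 12 and 4 counts in young against 56, 109 and 98 in old. Over all 67 partner genes edgeR called 2 and DESeq2 17, beside 0.615% and 5.56% of all genes. Without old replicate 1 they called 9 and 19, beside 5.36% and 9.51% of all genes. With young replicate 2, young replicate 3, old replicate 2 or old replicate 3 left out, edgeR called 0 of the 67. In the same order it called only 1, 0, 1 and 0 of all 14475 genes.

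**Figure D4:**
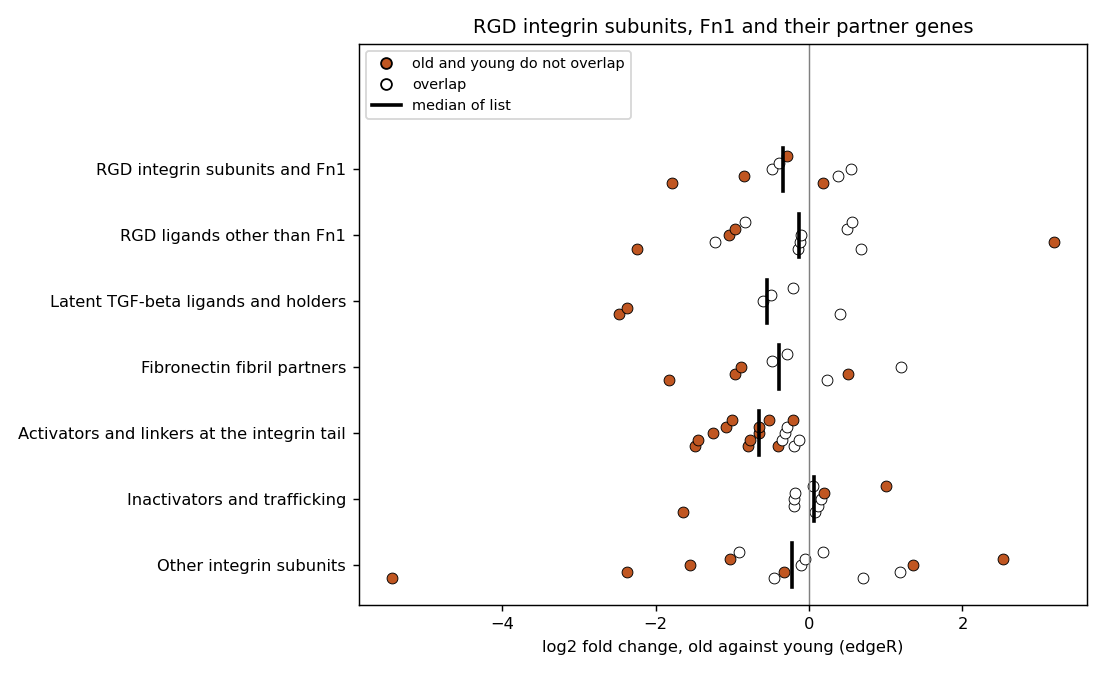
Log2 fold change in old against young VSM cells (horizontal axis, edgeR) of the 8 studied genes (top row) and of 6 lists of partner genes, 1 point per gene, filled where the 3 old and 3 young libraries do not overlap, with bars for list medians. All 17 activators and linkers lie below 0 with a median of -0.65, while inactivators and trafficking genes center on 0.07.

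Marker levels of the cultures also differed between young and old, and over single libraries they went with these genes in part. The 9 smooth muscle markers summed to 11211, 16230 and 21000 CPM in young VSM cells against 5565, 3450 and 3535 CPM in old cells. The 8 fibroblast markers summed to 730.1, 502 and 262 CPM in young VSM cells against 1175, 2153 and 2035 CPM in old cells. Young replicate 3 had the highest Itgb1, Itga5, Itgav and Itgb3 and the lowest Itgb5 and Itgb8 of the 6 libraries. It also had the highest smooth muscle and the lowest fibroblast sum. Old replicate 1 had the highest Itga8, Itga5, Itgav, Itgb1 and Itgb3 of the old libraries. Among them it also had the highest smooth muscle and the lowest fibroblast sum. Other values went the other way. Old replicate 1 also had the highest Itgb8 of the 6 libraries (6.65 CPM). Old replicate 2, with the highest fibroblast sum, had the lowest Itgb5 of the old libraries (255 CPM). Among the young libraries Itga8 was highest in replicate 2 (501 CPM) and not in replicate 3. Of the single markers, 8 of 9 smooth muscle genes were lower in old without overlap (beside 14.7% of all genes), and 3 of 8 fibroblast genes were higher in old without overlap (beside 14.5%). Skeletal muscle markers, of which 5 of 10 were in the table and Myh4, Ckm, Myod1, Myog and Pax7 were not, summed to 174 to 391 CPM in young and 36.3 to 67.0 CPM in old. Of these, Myh1, Myh2 and Acta1 were lower in old without overlap (3 of 5, beside 14.7% of all genes). Actn3 was below 1 CPM, and Tnnt3 had a higher mean in old (20.2 CPM) than in young (10.7 CPM). The other lists overlapped or were low. Summed levels in young and old were 904 to 1373 and 667 to 1520.4 CPM for 4 of 6 pericyte markers, 10.9 to 17.1 and 13.6 to 20.0 CPM for 5 of 9 endothelial markers, 5.13 to 16.0 and 10.4 to 16.8 CPM for 3 of 6 macrophage markers, 12.4 to 75.0 and 54.1 to 85.2 CPM for 2 of 4 Schwann cell markers, and 2.36 to 3.23 and 3.24 to 3.58 CPM for Krt8, the epithelial marker in the table. The contribution of these markers to the differences of Itga8 and the other genes was not tested.

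**Figure D5:**
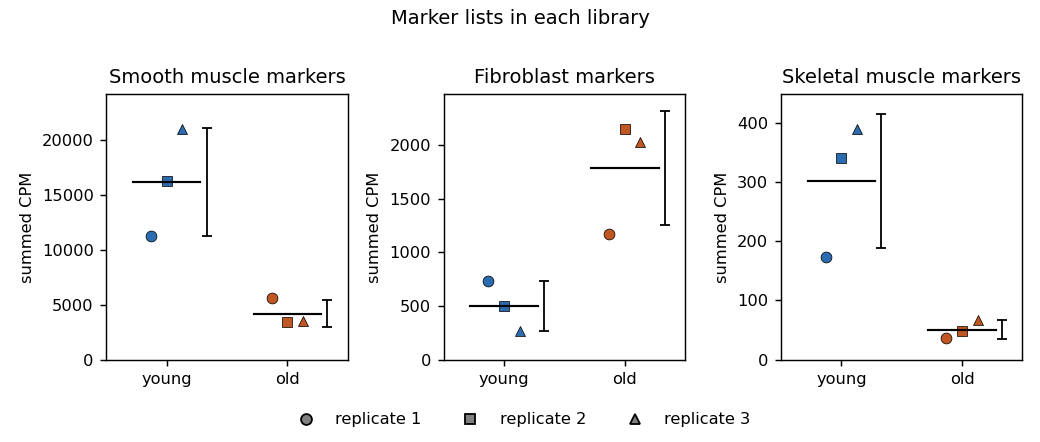
Summed CPM of the smooth muscle, fibroblast and skeletal muscle marker lists (vertical axes from 0) in each library, with marker shapes for replicate numbers, lines for group means and bars for ± 1 SD. The smooth muscle sum is 11211 or more in each young and 5565 or less in each old library, and the fibroblast sum is 730.1 or less in young and 1175 or more in old.

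The genes whose pattern over the 6 libraries was most like that of Itga8 were C6h2orf50, Ndufaf4, Acan, Tpm2 and Dennd5b, out of 11435 genes with a symbol and a mean of at least 1 CPM. Their Pearson r with Itga8 on log2 CPM was 0.997 to 0.998 and Spearman's rho 0.943 to 1.00, and r on the deviations from the group means was 0.978 to 0.991. Tpm2, which encodes the β-tropomyosin of contractile filaments, had a log2FC of -1.70 and Acan, which encodes the proteoglycan aggrecan, one of -4.60. For Itgb1 they were Akap7, Septin11, Pak2, Sco1 and Wnk3 (r from 0.993 to 0.997, rho 1.00), and for Fn1 they were Ybey, Mgst1, C17h6orf62, Taok3 and Xrcc4 (r from 0.949 to 0.997, rho from 0.829 to 1.00). These values describe 6 libraries in 2 age groups, and a search over so many genes returns high values at this number of libraries.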

How the data were processed

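Polyadenylated RNA of VSM cell cultures from 3 young and 3 old rats was sequenced as stranded paired-end libraries. The authors deposited raw gene counts, whole numbers per gene and library that had been filtered for low counts and not normalized. Per the Methods and the submitters' processing notes, reads were trimmed with cutadapt through Trim Galore, aligned with STAR to Rnor 6.0 and counted with featureCounts. The annotation is named as RefSeq, whereas rows carry Ensembl identifiers. The sources used here do not give settings for strand, mates or reads with several hits.

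The whole table was fitted with edgeR 4.0.16 in R 4.3.3 (TMM, glmQLFit in its default mode, glmQLFTest, Benjamini-Hochberg adjustment), with age as the only term and young as the reference. A standard error is the size of the log2 value over the root of its F statistic. DESeq2 1.42.0, limma-voom (limma 3.58.1), the legacy mode of glmQLFit, other scalings and filters, halved counts, the replicate number as a block and each library left out were alternatives. The default edgeR fit, DESeq2 and limma-voom were first run on simulated counts, and the other alternatives were not. DESeq2 with libraries left out was added after the data were seen. Libraries of a group differed by a chi-square of at least 67.1 per gene, so none repeated another.

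The genes studied, the partner and marker lists and the ratios were chosen with earlier results of these data known. All 8 genes in the table are named. From each partner list, genes called by edgeR or DESeq2 are named, at most 3 by absolute log2 fold change among those with a mean of at least 1 CPM, and for Itga8, Itgb1 and Fn1 the 5 genes with the highest Pearson r. No column of the table was left unused.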

Additional observations from a re-analysis of the deposited data

How the results depend on the processing

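The direction of each of the 8 genes held under all 21 alternatives. Itga8 passed both thresholds in 9 of them (library size only, DESeq2, without old replicate 1, and DESeq2 with any library left out), and Itgb1 in 2, both with DESeq2. For the number of the 8 genes called, the edgeR count of 0 became 1 with library size only, 1 with DESeq2 and 1 at an adjusted p under 0.1 (beside 2.96% of all genes), and 0 to 1 with a library left out. With DESeq2 and a library left out it was 1 or, without young replicate 1 or old replicate 1, 2 (beside 3.81% to 9.51% of all genes). The number at an unadjusted p under 0.05, 3 with edgeR, was 1 to 4 with a library left out. The number of partner genes called, 2 with edgeR, was 17 with DESeq2, 0 with limma-voom, 0 in legacy mode, 12 at an adjusted p under 0.1, and 0 to 9 with a library left out. With DESeq2 it was 18, 14 and 15 without young replicates 1, 2 and 3 and 19, 12 and 16 without old replicates 1, 2 and 3. In the same order, the shares of all genes called were 5.09%, 3.81% and 4.15%, then 9.51%, 4.24% and 4.5%. Over all genes, edgeR called 89, and 805 with DESeq2, 1 in legacy mode, 0 with limma-voom, 776 without old replicate 1, 12 without young replicate 1 and 0 or 1 without any other library. The cause of these shifts was not tested. With the replicate block, 0 of the 8 genes and 2 partner genes were called (12 of all genes). Those 2 were Tgfbi and Tgm2 (adjusted p = 0.0465 for each), while Lims2 (0.0738) and Itga7 (0.0649) were no longer called, and Itga8 had an adjusted p of 0.0841 from edgeR. Same-numbered libraries deviated together with r of 0.06, 0.32 and 0.31, and young replicate 1 correlated best with old replicate 2 (0.35), so the numbers were not taken as pairs. Group separation does not depend on the test and was not recounted for other tests. In the main fit it held for 4 of the 8 genes and 32 partner genes. With other scalings or filters or halved counts it held for 4 and for 29 to 35. With a library left out it held for 4 to 6 and for 34 to 45. Fewer libraries overlap less easily, and the shares of all genes in those fits were not counted. Itgb8 had the lowest counts of the 8 genes, 131 to 331 in a library.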

Other observations

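The tensins, which link integrin tails to actin at fibrillar adhesions, were divided. They are named here after their values were seen. Tns1 had a log2 fold change of -0.96 (edgeR adjusted p = 0.0688) and Tns3 one of -0.89 (adjusted p = 0.116), whereas Tns2 had one of 0.51 (adjusted p = 0.0688), with means of 359.5 ± 9.33 CPM in young against 511 ± 29.4 CPM in old (SD, n = 3 each). For each of these 3 genes the old and young libraries did not overlap, as for 29.2% of all genes.

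Dab2, an endocytic adaptor that takes up β1 integrins and also named after its values were seen, had 59.0 ± 9.01 CPM in young against 118 ± 19.7 CPM in old (SD, n = 3 each), without overlap. Its log2 fold change was 0.9987 (edgeR adjusted p = 0.0562), just under the threshold of 1.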
